A study of Mus musculus with 12 samples.

Results

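The genes described here encode muscle myosin light chains and myosin binding proteins. They were chosen by name, as every probe that the deposited signal table calls MYL1, MYL2, MYL3, MYL4, MYLPF, MYBPC1, MYBPC2 or MYBPH. This rule found 8 probes among 45281, for 6 of the 8 genes listed. No probe carries the name MYBPC1 or MYBPH. RefSeq synonyms tied 5 further probes to these genes, 4 to Mybpc1 and 1 to Myl4, under older names, and they are counted separately throughout. Of the 8 probes named by the rule, 6 were detected above the negative-control beads on both arrays of at least 1 group, as were 3 of the 5 under older names. Detection here means a detection p under 0.01.

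The arrays hold RNA of C2C12, a mouse myoblast cell line whose cells stop dividing in low-serum medium and join into multinucleate myotubes. There are 12 Illumina whole-genome bead arrays in 6 groups of 2. Cells had received the solvent DMSO or embelin at 10 uM, which is a benzoquinone from plants. The title of the series calls it an inhibitor of PCAF, a histone acetyltransferase encoded by Kat2b. Both treatments were applied in growth medium with 20% fetal bovine serum, and in differentiation medium with 2% horse serum for 24 h or 48 h. For growth medium, 1 label gives 0 h of treatment and another gives 24 h, so the exposure at that stage is uncertain. No label says that replicates 1 and 2 were separate cultures, so each p-value rests on differences between arrays that may be technical only. No slide is named.

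Each myosin motor of the sarcomere is built on a heavy chain whose neck binds an essential light chain and a regulatory light chain. The essential chains stiffen the neck, and phosphorylation of the regulatory chain by myosin light chain kinase tunes contraction. Myosin binding proteins sit along the thick filament, bridge to actin and set how readily heads attach. Muscle fibres are known for exchanging isoforms of all of these as they develop, and cultured myotubes express embryonic and fast forms first.

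The 4 sequences that follow are the 250 bases upstream of RefSeq start sites of Mylpf, Myl1, Myl2 and Mybpc1 in build GRCm38.p6, written in the direction of transcription. They are shown because these genes rose in DMSO cells, and because each of the 4 stretches holds the E-box CAGCTG. Capitals mark E-boxes (CANNTG) and MCAT elements (CATTCC, read on either strand). They lie at chr7:127211358-127211607 on the plus strand for Mylpf, chr1:66945057-66945306 on the minus strand for Myl1, chr5:122092939-122093188 on the plus strand for Myl2 and chr10:88605153-88605402 on the minus strand for Mybpc1.
Mylpf: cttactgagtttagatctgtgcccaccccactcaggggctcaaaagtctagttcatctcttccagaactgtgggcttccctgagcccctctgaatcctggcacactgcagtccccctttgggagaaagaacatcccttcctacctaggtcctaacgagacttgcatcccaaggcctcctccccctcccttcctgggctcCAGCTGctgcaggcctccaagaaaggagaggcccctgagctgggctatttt
Myl1: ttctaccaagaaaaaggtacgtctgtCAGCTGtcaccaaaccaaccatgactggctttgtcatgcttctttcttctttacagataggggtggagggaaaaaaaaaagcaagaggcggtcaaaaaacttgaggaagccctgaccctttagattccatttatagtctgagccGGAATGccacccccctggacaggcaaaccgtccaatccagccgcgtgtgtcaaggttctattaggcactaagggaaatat
Myl2: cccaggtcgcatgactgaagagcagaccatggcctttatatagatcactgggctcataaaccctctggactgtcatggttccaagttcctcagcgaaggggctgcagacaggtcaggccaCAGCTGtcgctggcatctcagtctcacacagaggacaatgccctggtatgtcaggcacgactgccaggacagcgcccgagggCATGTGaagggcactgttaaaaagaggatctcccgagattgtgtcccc
Mybpc1: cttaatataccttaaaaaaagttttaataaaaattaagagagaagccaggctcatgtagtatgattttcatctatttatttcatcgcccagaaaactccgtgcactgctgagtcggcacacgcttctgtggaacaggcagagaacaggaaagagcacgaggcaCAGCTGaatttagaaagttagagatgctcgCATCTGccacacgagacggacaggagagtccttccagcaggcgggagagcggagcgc
The E-box CAGCTG begins at position -51 relative to the start site in Mylpf, -224 in Myl1, -130 in Myl2 and -87 in Mybpc1. Myl2 and Mybpc1 each hold a second E-box, CATGTG and CATCTG, and Myl1 holds 1 MCAT element. E-boxes are the letters that MyoD-family factors bind, and MCAT elements are bound by TEAD factors. Over all 32851 RefSeq promoter windows of this length, 66.2% hold CANNTG on either strand, 13.0% hold CAGCTG, 12.6% hold an MCAT element, 2.92% a MEF2 motif and 1.47% a CArG box. CAGCTG is 1 form of CANNTG, so these counts overlap, and it was singled out after the sequences were seen. The same window of Myl4 holds none of the 4 motifs, and Myl2 has a second RefSeq start whose window holds only the E-box CATCTG. The windows of Myl3 and Mybpc2, detected on no array, hold the E-box CAGGTG and MCAT elements, and that of Myl3 also a CArG box. Mybph, which has no probe, holds CAGCTG and an MCAT element. A match of letters is no evidence of binding.

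On these arrays 15031 to 16314 probes were detected, and signals reached 37432 to 49278 at the brightest probe. The 2 embelin arrays in growth medium differed from each other more than the pairs of the other groups. The root mean square SD between replicates over all kept probes was 0.235 log2 units in that group against 0.14 to 0.183 in the other 5. All 5 skeletal muscle markers (Myod1, Myog, Des, Ckm, Acta1) were detected, 4 of 5 already in growth medium, and their summed signal ran from 5643 to 5902 in DMSO growth medium to 52845 to 55790 at 48 h. Markers of endothelial cells and of leukocytes were detected in no group (0 of 4 each). Of the cardiomyocyte list, Myh6 and Nkx2-5 were detected in some groups, and Nppa, Nppb, Tnni3, Myl7 and Gata4 in none. Acta2 and Smtn of the 5 smooth muscle markers, Cebpa of the 5 adipocyte markers and Alpl of the osteoblast markers were also detected.

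Among regulatory light chains, the fast skeletal form Mylpf was already present in growth medium and rose steeply in DMSO cells after serum was lowered. Probe ILMN_2977331 gave 3374 and 3327 on the 2 DMSO arrays in growth medium, 25390.5 and 23968 at 24 h, and 36625 and 37060.4 at 48 h. Every later array lay above every earlier one. After normalization the rise was 3.28 log2 units by 24 h (SE 0.27, adjusted p = 4.17e-06) and 3.80 by 48 h, a 13.97-fold rise (SE 0.27, adjusted p = 7.37e-07). All p-values of single probes are from limma with Benjamini-Hochberg adjustment over 16981 kept probes, with 2 arrays a group and 1 spread estimated from all 12. The second Mylpf probe, ILMN_2745496, gave 2524 and 2410 in growth medium, 15057 and 12068 at 24 h, and 21839 and 21605 at 48 h. It rose by 2.87 and 3.54 log2 units. For neither probe did the step from 24 h to 48 h pass the test (0.53 and 0.67 log2 units, adjusted p = 0.168 and 0.106).

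Myl2, the regulatory chain of slow skeletal and ventricular muscle, was measured at 48 h only. Its probe gave 45.9 and 51.0 on the DMSO arrays in growth medium, 43.4 and 46.7 at 24 h, and 94.5 and 114.6 at 48 h. Both 48 h arrays were detected and stood above all other arrays, and none of the other 10 was detected. The 48 h level was at least 1.73-fold that of growth medium and at least 1.70-fold that of 24 h (adjusted p = 5.57e-07 and 6.47e-06). Summed cardiomyocyte markers rose over the same stages, from 64.3 to 66.1 in DMSO growth medium to 164 to 200 at 48 h, where Myh6 was the only one of 7 detected. Their part in the Myl2 result was not tested.

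Of the essential light chains, Myl1 and Myl4 rose in DMSO cells and Myl3 was not detected. Myl1 encodes the fast skeletal essential chain, and its probe ILMN_2878542 gave 4979 and 4905 in DMSO growth medium, 21568.5 and 21986 at 24 h, and 33381 and 36197 at 48 h. It rose by 2.46 log2 units by 24 h (SE 0.20, adjusted p = 3.48e-06) and by 3.11 by 48 h (SE 0.20, adjusted p = 3.19e-07). The other Myl1 probe, ILMN_2694907, gave 113.4 and 101.5, then 843.4 and 742.3, then 2761 and 2912. Its rise was larger, 3.80 log2 units by 24 h and 5.62 by 48 h, or 49.3-fold (SE 0.35, adjusted p = 3.24e-07). Both Myl1 probes also rose from 24 h to 48 h, by 0.65 and 1.83 log2 units (adjusted p = 0.0297 and 0.00344). The call of the first did not hold without any 1 of the 4 DMSO arrays at these times, without the detection filter or with a trended, robust prior (adjusted p 0.0528 to 0.120).

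Myl4, the essential chain of embryonic skeletal and atrial muscle, rose over the same interval. Probe ILMN_2610744 gave 2079 and 2311 in DMSO growth medium, 21055 and 18856 at 24 h, and 33457 and 35768 at 48 h. The rise was 3.52 log2 units by 24 h and 4.31 by 48 h, or 19.8-fold (SE 0.34, adjusted p = 1.41e-06). From 24 h to 48 h it differed by 0.78 log2 units, which did not pass the test (adjusted p = 0.105). A second Myl4 probe under an older name, ILMN_1252533, gave 45.9 and 51.2, then 88.7 and 88.7, then 105.0 and 137.8. It was not detected in growth medium, so its level was at least 1.33-fold higher at 24 h and at least 2.19-fold higher at 48 h. This probe passed the detection filter only through the later groups, which partly fixed its rise. Myl3, the slow and ventricular essential chain, was detected on none of the 12 arrays, where its probe gave 43.6 to 67.7.

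Of the binding proteins, Mybpc1, the slow skeletal form, appeared late. Probe ILMN_2744469 gave 48.6 and 56.5 in DMSO growth medium, 82.2 and 65.4 at 24 h, and 321.1 and 386.1 at 48 h. Probe ILMN_2969105 gave 48.3 and 59.6, then 65.3 and 56.2, then 200.5 and 276.8. Neither was detected in growth medium, and both arrays at 48 h lay far above all earlier ones. Against growth medium the 48 h level was at least 8.48-fold and at least 5.29-fold higher (adjusted p = 1.04e-06 and 1.78e-07). Both probes passed the detection filter only through groups at 48 h, so their rise to 48 h was partly fixed by the filter. Between 24 h and 48 h the first probe rose by 3.22 log2 units and the second at least 5.21-fold. At 24 h the first probe was detected on 1 of 2 arrays, and no fold over the undetected growth medium was measured. Its call there (adjusted p = 0.0333) was lost without any 1 of 3 of the 4 arrays behind it, without the detection filter and with an offset of 50 (adjusted p 0.0882 to 0.244). The other 2 Mybpc1 probes and the probe of Mybpc2, the fast skeletal form, were detected on no array, with signals of 46.5 to 69.2 for Mybpc2 and 45.9 to 77.2 for the Mybpc1 probes.

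**Figure D1:**
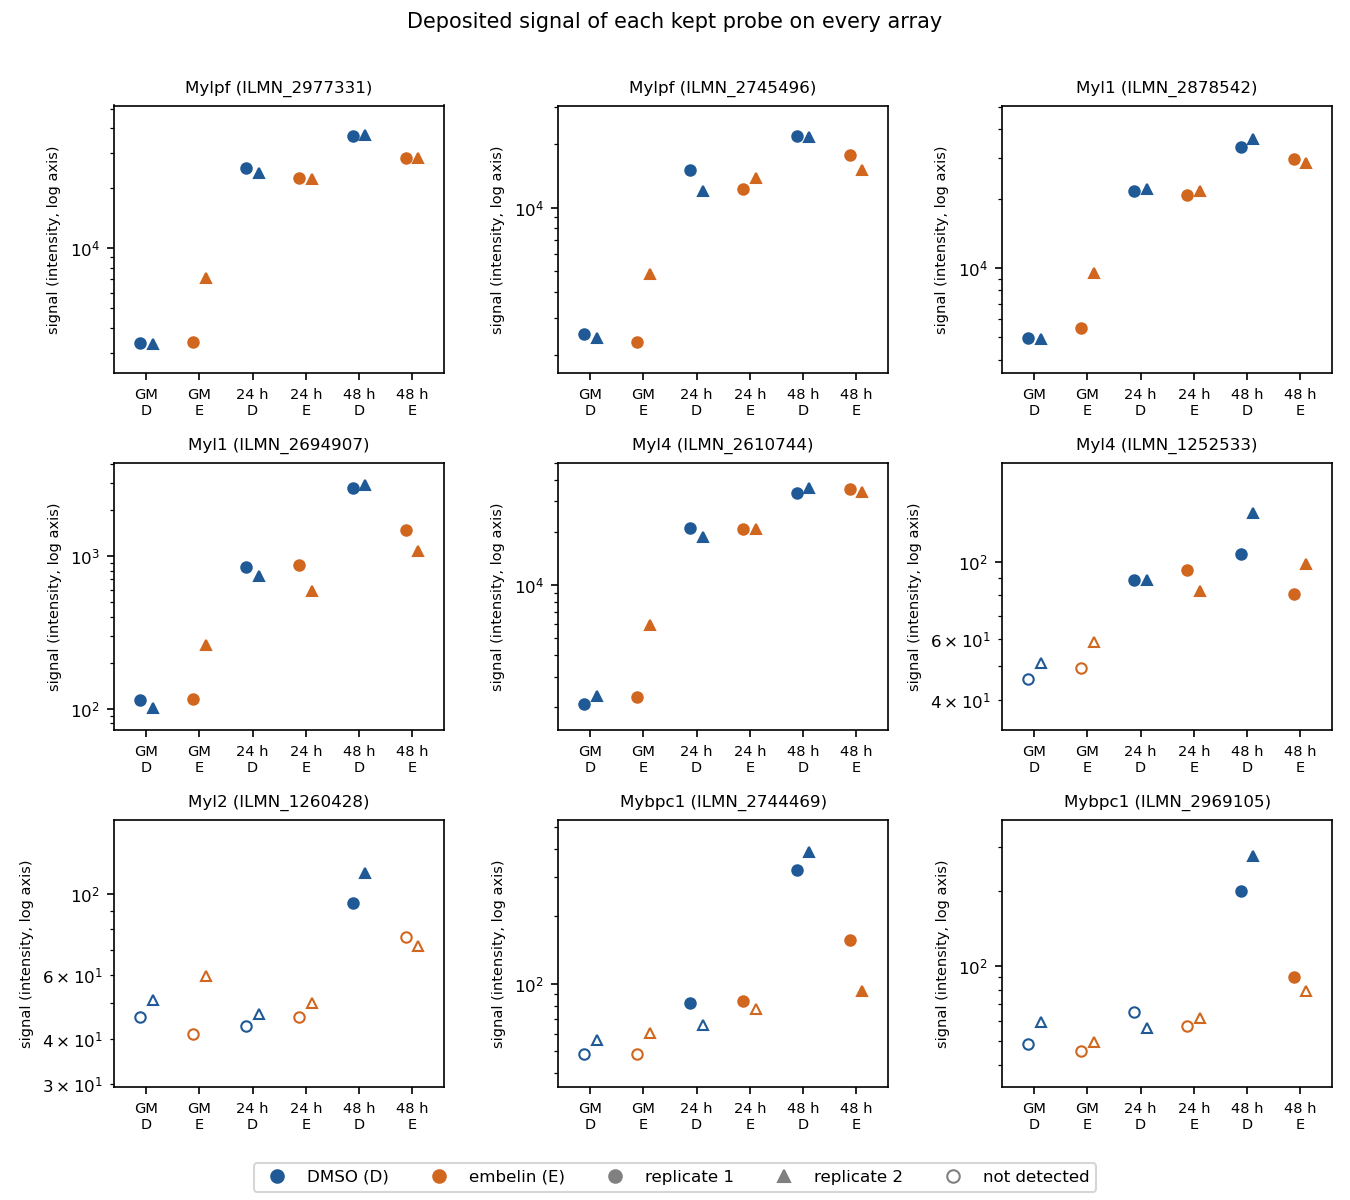
Deposited signal (intensity, log axis, a separate range in each panel) of the 9 kept probes on all 12 arrays, with DMSO in blue, embelin in orange, circles for replicate 1, triangles for replicate 2 and open symbols for arrays where the probe was not detected. Mylpf, Myl1 and Myl4 rise by 24 h in both treatments, the 2 Mybpc1 probes and Myl2 are raised on the 48 h arrays, and the second embelin array in growth medium lies above the other 3 for Mylpf, Myl1 and the first Myl4 probe.

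Counted together, 5 of 6 kept probes named by the rule rose in DMSO cells by 24 h, where 25.2% of all kept probes were called higher, and 6 of 6 by 48 h against 26.7% of all. From 24 h to 48 h, 3 of 6 rose, against 14.3% of all kept probes. Myl2 passed the detection filter only through its DMSO level at 48 h, so its rise there was partly fixed by the filter. The median change of the 6 probes by 48 h was 3.67 log2 units, also with Myl2 at its lower bound, beside -0.09 over all kept probes. Scaling arrays by their medians moved the latter to -0.20 and left the count at 6. Over the 5 probes of Mylpf, Myl1 and Myl4 detected in growth medium, 67.6% to 86.2% of the 48 h log2 rise in DMSO cells was present at 24 h. Myl2, Mybpc1 and Myl4 probe ILMN_1252533 were not detected in growth medium, so no such share was measured for them. These comparisons share arrays.

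**Figure D2:**
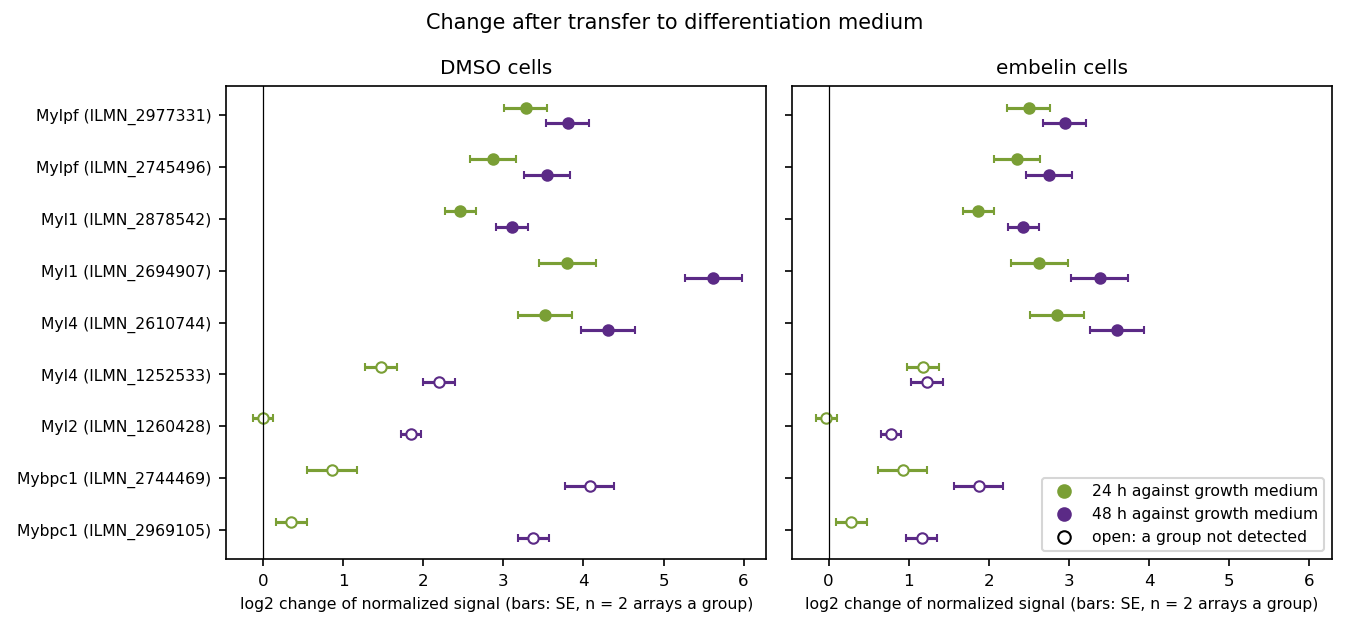
Log2 change of normalized signal against growth medium at 24 h (green) and 48 h (purple) in DMSO cells (left) and embelin cells (right), with bars for the SE and 2 arrays a group. Open points have a group where no array detected the probe, so their positions are fitted values and not measured changes. For the 5 filled probes the 48 h changes run from 3.11 to 5.62 in DMSO cells and from 2.43 to 3.61 in embelin cells.

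In growth medium no member differed between embelin and DMSO by the test (0 of 6, and 0.0% of all kept probes). An unadjusted p under 0.05 was seen for 3 of 6, and for 968 of all 16981 kept probes. For the 5 probes detected there the differences ran from 0.44 to 0.93 log2 units, all toward higher with embelin. Myl2 was not detected in growth medium, so its fitted difference of 0.03 has no measured direction. Mylpf probe ILMN_2977331 gave 3386 and 7088.5 with embelin, Myl4 probe ILMN_2610744 gave 2305 and 5880.0, and Myl1 probe ILMN_2878542 gave 5516.5 and 9466. In each case the first embelin array lay near the DMSO arrays and the second was 1.72 to 2.55 times as bright as the first. The same array had a summed skeletal marker signal of 11520 against 5661 on the first, and the part of this in the light chain values was not tested. Without the second embelin array the rule's 5 probes detected in growth medium differed by -0.16 to 0.23 log2 units. Without the first, these 5 differed by 0.91 to 1.61. Either fit leaves a lone embelin array, which is then assumed to vary like the other groups.

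**Figure D3:**
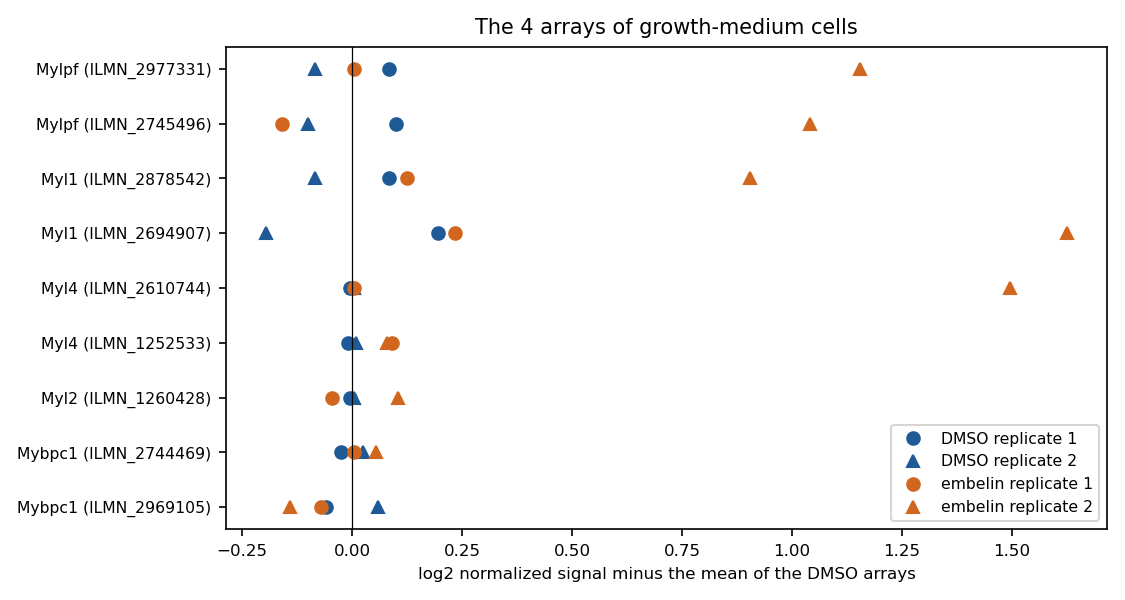
Log2 normalized signal of the 9 kept probes on the 4 growth-medium arrays, each minus the mean of the 2 DMSO arrays, with DMSO in blue, embelin in orange, circles for replicate 1 and triangles for replicate 2. Replicate 2 of embelin lies to the right for the Mylpf, Myl1 and first Myl4 probes, and the other 3 arrays lie near 0. Myl2, Mybpc1 and Myl4 probe ILMN_1252533 were not detected on these arrays.

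At 24 h in differentiation medium no member differed between the treatments by the test. Mylpf probe ILMN_2977331 gave 22609 and 22264 with embelin, Myl1 probe ILMN_2878542 gave 20648 and 21563, and Myl4 probe ILMN_2610744 gave 20920.2 and 20902.5. These lay near the DMSO signals given above. None of the 6 probes was called, nor any under an older name, against 0.0589% of all kept probes (10 of them). None had an unadjusted p under 0.05, against 1752 of all 16981 kept probes. The differences ran from -0.24 to 0.07 log2 units. For Myl1 probe ILMN_2878542 the 95% interval was -0.51 to 0.36, and for Mylpf probe ILMN_2977331 it was -0.80 to 0.40, so changes of that size are not excluded by these arrays.

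At 48 h embelin cells had less Myl2 and Mybpc1 RNA than DMSO cells and a lower signal on 1 of 2 probes for both Myl1 and Myl4, while Mylpf and the bright Myl1 and Myl4 probes did not pass the test. Mybpc1 probe ILMN_2744469 gave 156.2 and 92.7 with embelin against 321.1 and 386.1 with DMSO. Probe ILMN_2969105 gave 89.8 and 78.9 against 200.5 and 276.8, and was detected on 1 of the 2 embelin arrays. No embelin array reached a DMSO array for either probe. The difference was -2.17 log2 units for the first (SE 0.31, adjusted p = 0.000337), or 4.52-fold lower, and -2.32 for the second (SE 0.19, adjusted p = 1.16e-05), with 1 of its 2 embelin arrays not detected. Myl2 gave 76.3 and 72.0 with embelin, where it was not detected, against 94.5 and 114.6, and was at least 1.79-fold lower (adjusted p = 0.000124). Myl2 and Mybpc1 probe ILMN_2969105 passed the detection filter only through DMSO cells at 48 h, so their lower level with embelin was partly fixed by the filter. Summed cardiomyocyte markers were 140 on both embelin arrays against 164 to 200 with DMSO, and their part in the Myl2 difference was not tested.

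The probes of Myl1 and of Myl4 disagreed at 48 h. Myl1 probe ILMN_2694907 gave 1485 and 1079.5 with embelin against 2761 and 2912 with DMSO, a fall by 1.31 log2 units (SE 0.35, adjusted p = 0.0146). Myl1 probe ILMN_2878542 gave 29634 and 28512 against 33381 and 36197, a difference of -0.16 with a 95% interval of -0.59 to 0.27 (adjusted p = 0.56). The files used here do not say which transcripts each probe detects, and the difference between probes was not tested. The call of ILMN_2694907 was lost without either DMSO array at 48 h or the second embelin array (adjusted p 0.0562 to 0.102), without the detection filter (0.0585) and with a trended, robust prior (0.0592). Myl4 probe ILMN_2610744 gave 35298 and 33977 with embelin, overlapping the DMSO signals of 33457 and 35768, and differed by 0.05 log2 units (95% interval -0.69 to 0.80, adjusted p = 0.925), a sign that turned under 3 other scalings. Myl4 probe ILMN_1252533 gave 80.9 and 98.3 against 105.0 and 137.8 and fell by 0.88 log2 units (SE 0.20, adjusted p = 0.00604). That call was lost without the first embelin array or the second DMSO array (adjusted p = 0.0565 and 0.0629).

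Mylpf was lower on both embelin arrays without passing the test. ILMN_2977331 gave 28354 and 28404 with embelin against 36625 and 37060.4, and ILMN_2745496 gave 17763 and 15104 against 21839 and 21605. The differences were -0.28 and -0.36 log2 units (95% intervals -0.88 to 0.32 and -0.996 to 0.29, adjusted p = 0.456 and 0.369). The groups did not overlap for either probe, but the shared spread included the discordant growth-medium arrays. With single arrays left out, the second probe was called only without the first embelin growth-medium array (-0.36), and the first probe was called in no such run. Mylpf ILMN_2977331, Myl1 ILMN_2878542 and Myl4 ILMN_2610744 stood at 85.9% to 94.3% of the brightest probe's signal on the DMSO arrays at 48 h, with 2 to 12 brighter probes, and at 66.9% to 94.3% with embelin. A compressed scale near that ceiling was not tested.

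Over all kept probes named by the rule, 2 of 6 were called lower and 0 higher with embelin at 48 h, against 18.3% and 18.6% of all kept probes. With older names the count was 5 of 9 lower. Normalized arrays of the 2 treatments did not overlap toward lower for 5 of 6, against 35.4% of all. Myl2, and among the 9 also Mybpc1 probe ILMN_2969105, passed the detection filter only through DMSO cells at 48 h. All of these counts were thus partly fixed by the filter. Mylpf and Myl1 have 2 probes each among the 6, so the counts are of probes and not of separate genes. In bulk RNA, fewer myotubes and less RNA per myotube cannot be told apart. Summed skeletal muscle markers were 46945 to 50271 with embelin at 48 h against 52845 to 55790 with DMSO, and their part in the differences was not tested.

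**Figure D4:**
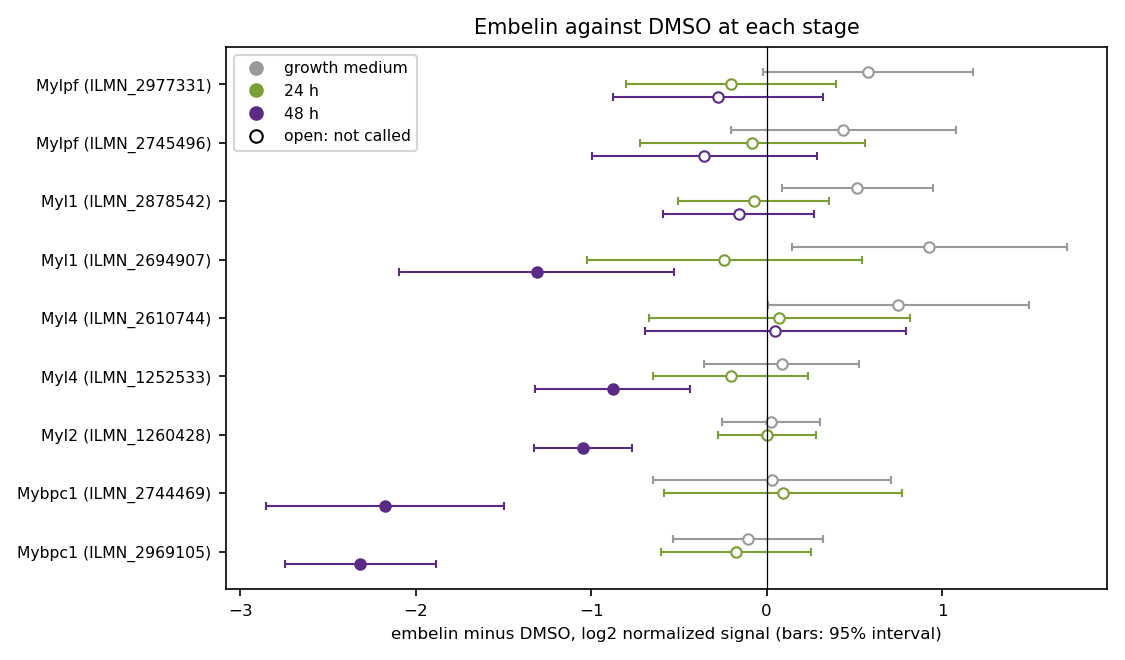
Difference between embelin and DMSO in log2 normalized signal for the 9 kept probes in growth medium (grey), at 24 h (green) and at 48 h (purple), with bars for the 95% interval and filled points where the adjusted p was under 0.05. The 5 filled points, all at 48 h and between -0.88 and -2.32, belong to Myl1 probe ILMN_2694907, Myl4 probe ILMN_1252533, Myl2 and both Mybpc1 probes. Where a group had no detected array, as for Myl2 at every stage, positions are fitted values and not measured differences. The same holds in growth medium for Mybpc1 and Myl4 probe ILMN_1252533.

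Within embelin cells the light chains still rose. Against growth medium, 5 of 6 were higher at 24 h (26.5% of all kept probes) and 6 of 6 at 48 h (29.9%). By 48 h Mylpf had risen by 2.95 and 2.75 log2 units, Myl1 by 2.43 and 3.39 and Myl4 probe ILMN_2610744 by 3.61. With only the first growth-medium array these were 3.52, 3.35, 2.81, 4.07 and 4.35, and with only the second 2.39, 2.15, 2.06, 2.68 and 2.89. Mybpc1 was at least 1.84-fold and at least 1.04-fold higher at 48 h than in growth medium. The first of these probes passed the detection filter only through groups at 48 h, which partly fixed its rise. Myl2 was not detected at either stage, and its fitted difference of 0.78 log2 units is between signals at background. From 24 h to 48 h 1 of 6 was called higher, Myl2, again without detection, against 12.6% of all. That count became 6 of 6 without either growth-medium embelin array, as did the 3 of 6 in DMSO cells, with a smaller shared spread (an SE of 0.11 in place of 0.27 for Mylpf ILMN_2977331 in DMSO cells).

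Whether the effect of embelin differed between stages was tested as an interaction. Between growth medium and 24 h 0 of 6 differed (0.0% of all kept probes). An unadjusted p under 0.05 was seen for 1 of 6, and for 1205 of all 16981 kept probes. Between growth medium and 48 h 2 of 6 were called, both toward lower (11.2% of all), namely Myl1 probe ILMN_2694907 and Myl2, and 5 of 9 with older names. Between 24 h and 48 h the count was 1 of 6 (6.63% of all), Myl2, and 3 of 9 with both Mybpc1 probes. For Myl2 and Mybpc1 probe ILMN_2969105, which passed the filter only through DMSO cells at 48 h, an interaction toward lower at 48 h was partly fixed by it. Without the first embelin growth-medium array the values of these 6 between growth medium and 48 h ran from -2.93 to -1.07 log2 units. Without the second they ran from -1.54 to 0.05. For Mylpf ILMN_2977331 the difference between the 24 h and 48 h effects was -0.08 log2 units (95% interval -0.92 to 0.77), and for Myl4 ILMN_2610744 it was -0.02 (-1.08 to 1.03).

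The other genes of the myosin motor were followed in the same comparisons. Of 9 kept probes of 5 sarcomeric heavy chain genes, 9 were higher at 48 h than in growth medium in DMSO cells (26.7% of all kept probes were) and 8 were lower with embelin at 48 h (18.3% of all). The median was 3.77 log2 units for the first, or 2.80 with the 7 probes not detected in growth medium at their lower bounds, and -0.65 for the second, beside 0.00 over all kept probes. Those 7 passed the detection filter only through later stages, which partly fixed their rise. Myh8, the perinatal heavy chain, was at least 150.4-fold and at least 39.4-fold higher by 48 h on 2 probes, and the latter was lower with embelin by 1.84 log2 units (adjusted p = 5.49e-06). Myh1, a fast adult chain, was lower by 2.07 (adjusted p = 0.000412). Among 7 kept probes of myosin chaperones, 3 were higher and 2 lower by 48 h in DMSO cells, and 1 was higher and 3 lower with embelin. Of all kept probes, 26.7% were called higher and 33.8% lower by 48 h, and 18.6% higher and 18.3% lower with embelin. For 2 of the 7 chaperone probes, 1 of the groups behind the 48 h change had no detected array. The filter partly fixed the direction of those 2. Unc45b, a muscle chaperone that folds the myosin head, rose by 5.71 log2 units by 48 h (adjusted p = 1.16e-06). Light chain kinases and phosphatase subunits had 8 of 9 kept probes higher by 48 h (26.7% of all kept probes). Their median change was 0.87 log2 units, or 0.47 with 4 probes that had a group without a detected array at their lower bounds. The filter partly fixed the direction of those 4. With embelin, 3 were higher and 2 lower at 48 h (18.6% and 18.3% of all). The largest of these embelin differences was Mylk, the smooth muscle and non-muscle kinase, higher by 1.67 on probe ILMN_1219471 (adjusted p = 5.05e-05). Summed smooth muscle markers, of which Acta2 and Smtn were detected, also differed, with 40817 to 42097 in embelin cells against 34807 to 36689 in DMSO cells, and their part in the Mylk difference was not tested. The other light chains had 6 of 9 kept probes higher by 48 h (26.7% of all), and 1 higher and 3 lower with embelin (18.6% and 18.3% of all). None of 3 kept probes of non-muscle and smooth muscle heavy chains differed with embelin, and no probe of Mybpc3 or Mybphl was kept.

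Regulators of the programme were read in the same comparisons, and their relation to the member values was not tested. Myog, a MyoD-family factor that turns on late muscle genes, rose by 4.75 log2 units by 48 h in DMSO cells and differed by -0.02 with embelin at 48 h (SE 0.47, adjusted p = 0.979). Myod1 fell by 0.59 with embelin at 48 h (SE 0.17, adjusted p = 0.0188). Kat2b was higher by 0.51 (SE 0.14, adjusted p = 0.0158).

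For the probe of each gene with the highest mean, profiles were also matched over the 12 arrays by the root mean square difference of centred log2 signals. Closest to Mylpf (ILMN_2977331) were Acta1, the skeletal actin, at 0.127 log2 units, Pdlim3 at 0.137 and Actn3 at 0.137. Closest to Myl1 (ILMN_2878542) were Nuak1 at 0.115, Pkig at 0.138 and Trim72 at 0.141. Myl4 (ILMN_2610744) lay closest to Chrng, the fetal acetylcholine receptor subunit, at 0.133, then to Tnnc1 at 0.167 and Pkig at 0.212. For Mybpc1 (ILMN_2744469) no gene was closer than Afap1l1 at 0.342, followed by Smtnl2 at 0.347 and Art1 at 0.371. Myl2, at background on 10 arrays, lay nearest to Padi2 at 0.165, Fgf13 at 0.169 and Ssu2 at 0.173.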

How the data were processed

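Gene expression was read on 12 Illumina MouseWG-6 v2.0 R3 arrays. Per the file headers, each deposited intensity is the average over the beads of a probe, from GenomeStudio (1.8.0 per the headers, 2010.2 per the submitters' processing notes) without normalization, beside a deposited detection score, taken as 1 minus the detection p. The labels name an Agilent labelling kit, whereas headers and probes are Illumina's. The deposited series matrix holds log2 values centred by the authors on each probe, and served as an alternative. Signals were background-corrected, quantile normalized and logged with neqc in limma 3.58.1 (R 4.3.3, offset 16). A probe was kept (16981 were) if its detection p was under 0.01 on both arrays of any group, and 6 group means were fitted (6 residual and 4.66 prior degrees of freedom). Calls are at an adjusted p under 0.05 (Benjamini-Hochberg). Where a group had no detected array, a fold is a lower bound against the higher of its signal and the lowest detected signal per array. The members, gene lists and tests were chosen with earlier results of these data known. The text names every member probe, the 3 largest called changes of the pathway lists in each of 2 comparisons, the 3 closest profiles, Myod1, Myog and Kat2b. Replicate numbers were not used as pairs, since deviations of same-numbered arrays correlated by -0.022 to 0.244 over 15 group pairs and exceeded 0.1 in 7. The limma fit was run on simulated log2 signals with known changes in embelin cells at 48 h. Background correction, normalization, the detection filter and the lower bounds were not part of that test. The deposited table also gives the count of beads behind each mean (25 to 66 for member probes), and these gave a standard error of 2.3% to 8.69% of its signal, and the number of arrays limits precision further. Current symbols came from RefSeq (GRCm38.p6). Python 3.11.15 with pandas 2.3.3, numpy 2.4.6 and matplotlib 3.10.9 made the tables and plots.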

Additional observations from a re-analysis of the deposited data

Results flagged for a closer look

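For 5 probes the embelin effect differed between stages by the interaction test in limma, which set them apart. Relative to its effect in growth medium, the 48 h effect was lower by 2.24 log2 units for Myl1 probe ILMN_2694907 (-2.2381, adjusted p = 0.00998), by 0.96 for Myl4 probe ILMN_1252533 (-0.9630, adjusted p = 0.0338), by 1.07 for Myl2 (-1.0718, adjusted p = 0.00219), and by 2.21 for both Mybpc1 probes, ILMN_2744469 (-2.2069, adjusted p = 0.00499) and ILMN_2969105 (-2.2089, adjusted p = 0.000414). Without the second embelin growth-medium array the Myl1 value was -1.54 and without the first -2.93. The Myl4 value was -0.95 without the first embelin growth-medium array and -0.97 without the second. It was -0.71 without the first embelin array or the second DMSO array at 48 h. Its call was lost in each of these fits, without either DMSO growth-medium array, and without the detection filter (adjusted p = 0.0945). Relative to 24 h, the 48 h effect was lower for Myl2 (-1.0481, adjusted p = 0.00409) and for Mybpc1 probes ILMN_2744469 (-2.2696, adjusted p = 0.00706) and ILMN_2969105 (-2.1396, adjusted p = 0.000917). Myl2 and Mybpc1 were at or near background before 48 h, where no effect could be measured, and Myl2 and ILMN_2969105 passed the detection filter only through DMSO cells at 48 h, which partly fixed their direction. Myl4 probe ILMN_1252533 was not detected in growth medium in either treatment, so its effect there was not measured. Groups of 2 arrays are too small for a search for outlying samples.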

How the results depend on the processing

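Counts below are of the 6 kept probes named by the rule. Every probe tested was called higher by 48 h in both treatments under every alternative run, over 4 to 6 probes, except without the detection filter, where 7 of 8 in DMSO and 6 of 8 in embelin were. With embelin against DMSO at 48 h the count of 2 became 1 with probes detected on all arrays (which drops Myl2), with the highest-mean probe of each gene and with a trended, robust prior, and ran from 1 to 3 with 1 array left out. Taking the highest-mean probe gave 3 in place of 5 by 24 h in both treatments, with 4 probes left. From 24 h to 48 h the 3 in DMSO cells became 5 with the series matrix and 2 to 6 with 1 array left out. Of those 3, Myl1 ILMN_2878542 lost its call with a trended, robust prior and without the detection filter (adjusted p = 0.0528 and 0.0822). Probes detected on all arrays leave out Myl2, and highest-mean probes leave out Myl1 ILMN_2694907. The 1 in embelin cells became 3 without background correction, 2 with an offset of 50, 2 with the series matrix, and 1 to 6 with 1 array left out. In growth medium, leaving out arrays gave 0 to 5, and the interaction between growth medium and 24 h gave 0 to 5. For the interaction between growth medium and 48 h the 2 became 4 with median scaling, 3 with 75th percentile scaling, 5 with the series matrix, 1 with probes detected on all arrays, 1 with highest-mean probes, and 2 to 6 with 1 array left out. For the interaction between 24 h and 48 h the 1 became 0 with the series matrix, 0 with probes detected on all arrays, and 1 to 2 with 1 array left out. Where no sentence names one, the cause was not tested.

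Signs turned for differences within their error, given here with the range over single arrays left out. In growth medium Mylpf ILMN_2745496 ran from -0.16 to 1.05. Between treatments at 24 h the ranges were -0.22 to 0.063 for Mylpf ILMN_2745496, -0.5005 to 0.017 for Myl1 ILMN_2694907, -0.24 to 0.42 for Mybpc1 ILMN_2744469 and -0.0060 to 0.15 for Myl4 ILMN_2610744, which gave -0.042 with median scaling, -0.039 with 75th percentile scaling and -0.025 with the series matrix. At 48 h it gave -0.094, -0.15 and -0.12 under these. Myl4 ILMN_1252533 in embelin cells from 24 h to 48 h ran from -0.21 to 0.30. Interactions ran from -1.45 to 0.048 for Myl4 ILMN_2610744 at 48 h against growth medium. Against 24 h they ran from -0.10 to 0.057 for it and from -0.16 to 0.021 for Mylpf ILMN_2977331.

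With the replicate number as a replicate block, embelin at 48 h again gave 2, and no count of members changed in any of the 12 comparisons. Median scaling moved the calls over all probes in embelin cells by 24 h from 4508 higher and 4955 lower to 3219 and 5584, and its median from -0.03 to -0.17. At 24 h between treatments 3 higher and 7 lower became 0 and 5. Signals of Myl2, Mybpc1 and Myl4 ILMN_1252533 lie close to background, which limits their folds.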

Other observations

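Outside the members, 2 kinases of regulatory light chains moved in opposite directions with embelin at 48 h, and their probes are named after their values were seen. Mylk2, the skeletal muscle light chain kinase, was lower by 1.13 and 1.44 log2 units on its 2 kept probes (adjusted p = 0.000437 and 3.38e-05). Mylk, the smooth muscle and non-muscle kinase, was higher on all 3 kept probes, by 1.25 to 1.67 (adjusted p 5.05e-05 to 0.0202). Summed smooth muscle markers were 40817 to 42097 with embelin against 34807 to 36689 with DMSO, and their part in this was not tested. Both genes were higher in DMSO cells at 48 h than in growth medium, Mylk2 by at least 2.77-fold and at least 4.19-fold. Neither Mylk2 probe was detected in DMSO growth medium, so the filter partly fixed its rise.

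Among the other light chains, Myl6b, an essential chain found in slow muscle and non-muscle tissue, was at least 23.4-fold higher by 48 h in DMSO cells and lower with embelin by 1.19 log2 units (adjusted p = 0.000218). It was not detected in DMSO growth medium, so the filter partly fixed its rise. Myl9, the smooth muscle regulatory chain, was higher by 1.89 and 1.97 by 48 h and lower with embelin by 0.83 and 0.87 (adjusted p = 0.00237 and 0.00152). Myl6, the common non-muscle essential chain, differed by -0.08 and -0.06 by 48 h and by 0.27 and 0.23 with embelin, and passed the test in neither comparison (adjusted p 0.0566 to 0.617).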
